A study of Mus musculus with 20 samples.

Results

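The genes described here are the 10 members of 3 linked families of cytokine signalling: the feedback inhibitors Socs1, Socs2, Socs3 and Cish, the transcription factors Stat3, Stat4, Stat5a and Stat5b, and the kinases Pim1 and Pim2. They were taken as a list by name from the 46603 gene identifiers counted in each library. The genes lie, in GRCm38 coordinates of GENCODE M21, at chr16:10782240-10785536 (Socs1), chr10:95385362-95417180 (Socs2), chr11:117966079-117970047 (Socs3), chr9:107296026-107302784 (Cish), chr1:51987148-52107189 (Stat4), chr17:29490753-29496112 (Pim1) and chrX:7878262-7883432 (Pim2), with Stat5b (chr11:100780731-100850724), Stat5a (chr11:100859351-100885169) and Stat3 (chr11:100885098-100939540) next to each other on chromosome 11. RNA was sequenced from 20 mouse libraries in 10 groups of 2. There were 12 of OT-I/Cas9 CD8 T cells, which carry a transgenic receptor for an ovalbumin peptide and express Cas9, and 8 of B16F10, a mouse melanoma cell line. T cells of the genotype Ctrl were left resting or stimulated on plate-bound anti-CD3 (2.5 µg/mL for 24 hours), in both cases with thapsigargin (TG, 50 ng/mL for 8 hours), a blocker of the SERCA calcium pumps, or with dimethyl sulfoxide vehicle. Atp2a2 knockout (KO) T cells, in which the gene of the SERCA2 pump was targeted, had vehicle only and were labelled resting or activated. All T cell groups, resting ones included, were kept in IL-2 (10 ng/mL), IL-7 (0.5 ng/mL), IL-15 (1 ng/mL) and puromycin. Control and Ccdc101 KO melanoma cells each had TG or vehicle and were also kept in puromycin. The labels do not say whether the KO cells were a clone or a pool, whether TG overlapped the end of the anti-CD3 treatment, or whether the 2 libraries of a group were separate cultures. The p values therefore measure the spread between these libraries, which may be technical.

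Cytokines such as IL-2, IL-7 and IL-15 bind receptors that carry Janus kinases (JAKs), and the JAKs phosphorylate STAT proteins, which then enter the nucleus and drive transcription. STAT5A and STAT5B are the main STATs downstream of IL-2 in T cells, STAT3 follows IL-6, IL-10 and IL-21, and STAT4 follows IL-12 and drives interferon-gamma. Among the genes that STATs induce are Cish and the Socs genes, whose proteins block the receptor, the JAK or the STAT binding site and so close a negative feedback loop. Pim1 and Pim2 are also STAT targets and encode serine/threonine kinases that promote survival, translation and growth. They are active once made, so their mRNA level is a main point of control. STAT activity itself depends on phosphorylation, which RNA counts do not measure.

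The labelled cell types and the targeted genes were looked at first. Total counts ran from 9985311 to 17462770 per library. All 11 T cell markers were present at 1 CPM or more (read counts normalised to library size, within the T cell or the melanoma libraries) in every T cell library, summing to between 3971 and 9115 CPM, and markers of B, NK, myeloid, dendritic, fibroblast and erythroid cells summed to at most 5.15 CPM per list. All 7 melanocyte markers were present in every melanoma library. Atp2a2 mRNA was 664 and 687 CPM in activated control and 434 and 436 CPM in activated KO T cells, and Sgf29, the current name of Ccdc101, was 29.6 and 28.2 CPM in control and 19.6 and 18.7 CPM in KO melanoma with vehicle. The 2 libraries labelled resting Atp2a2 KO go against that label. Ifng, which was at 9.01 and 9.79 CPM in resting control cells, was at 7364 and 7414 CPM in them. Over the 500 genes that differed most, their distance (root mean square of log2 differences) to the activated KO libraries was 1.18 to 1.23, close to the 1.23 between the 2 libraries themselves, whereas it was 4.00 to 4.06 to the resting controls. They are called labelled resting throughout, and fits without them changed 0 calls of the 10 genes in the other T cell comparisons.

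STAT dimers bind a short palindrome, TTCNNNGAA, in which N is any base. Promoter windows of 300 bases (250 before and 50 after each RefSeq start, build GRCm38.p6) were found for 9 of the 10 genes, in 13 windows; Socs2 had none. The palindrome was present in the windows of Cish and Socs3 only, and 8.3% of the 32851 windows of all genes hold at least 1 match. Both stretches are shown because these genes are the feedback arm of the pathway and their mRNA is described next. They are 30 bases long, written 5′ to 3′ on the gene's strand, with the palindrome in capitals.
Cish: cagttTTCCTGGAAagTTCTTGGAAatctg
Socs3: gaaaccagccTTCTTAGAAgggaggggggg
The Cish stretch lies at chr9:107296654-107296683 (plus strand), from base -5 to base 25 around the start, inside an exon of the transcript Cish-201, in its 5′ untranslated part. It holds 2 matches, at bases 1 to 9 and 12 to 20, and 0.457% of all windows hold 2 or more. The Socs3 stretch lies at chr11:117969501-117969530 (minus strand), from base -164 to base -135, inside the longer Socs3 gene model of GENCODE M21 but in none of its exons. The motif TTTTCC of NFAT, the calcium-regulated factor, was present in 1 window each of Cish (bases -2 to 4, overlapping the first STAT match), Stat4 and Pim1, and in 23.4% of all windows. Motifs of AP-1 (TGANTCA), CRE (TGACGTCA), C/EBP-ATF (TGATGNAA) and NF-kB (10 bases, GGGA and TTCC with 2 free bases between), also searched on both strands, were in none of the 13, against 7.81%, 1.79%, 3.97% and 1.47% of all windows. A match shows only that these letters are present.

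In control T cells all 10 genes passed the filter on low counts. With activation 6 rose and 4 fell in vehicle, where 35.3% of the 13432 tested genes rose and 39.1% fell, so a call by itself sets no gene apart. TG lowered 6 of the 10 and raised 3 in resting cells, where 35.2% of tested genes fell and 34.1% rose. In activated cells TG lowered 7 and raised 2, with 32.4% of tested genes lower and 32.6% higher. The median log2 change of the 10 genes with TG was -0.46 in resting and -0.55 in activated cells, against 0.01 over all tested genes in each. These comparisons share libraries: the resting vehicle libraries serve both activation and TG, and the activated vehicle libraries both activation and TG in activated cells. The summed T cell markers also differed between the groups, from 7252 to 7365 CPM in resting cells, 8988 to 9115 CPM in resting cells with TG, 3971 to 3979 CPM in activated cells and 6008 to 6107 CPM in activated cells with TG; their part in these results was not tested. In bulk RNA, fewer cells with a transcript and less of it per cell cannot be told apart.

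**Figure D1:**
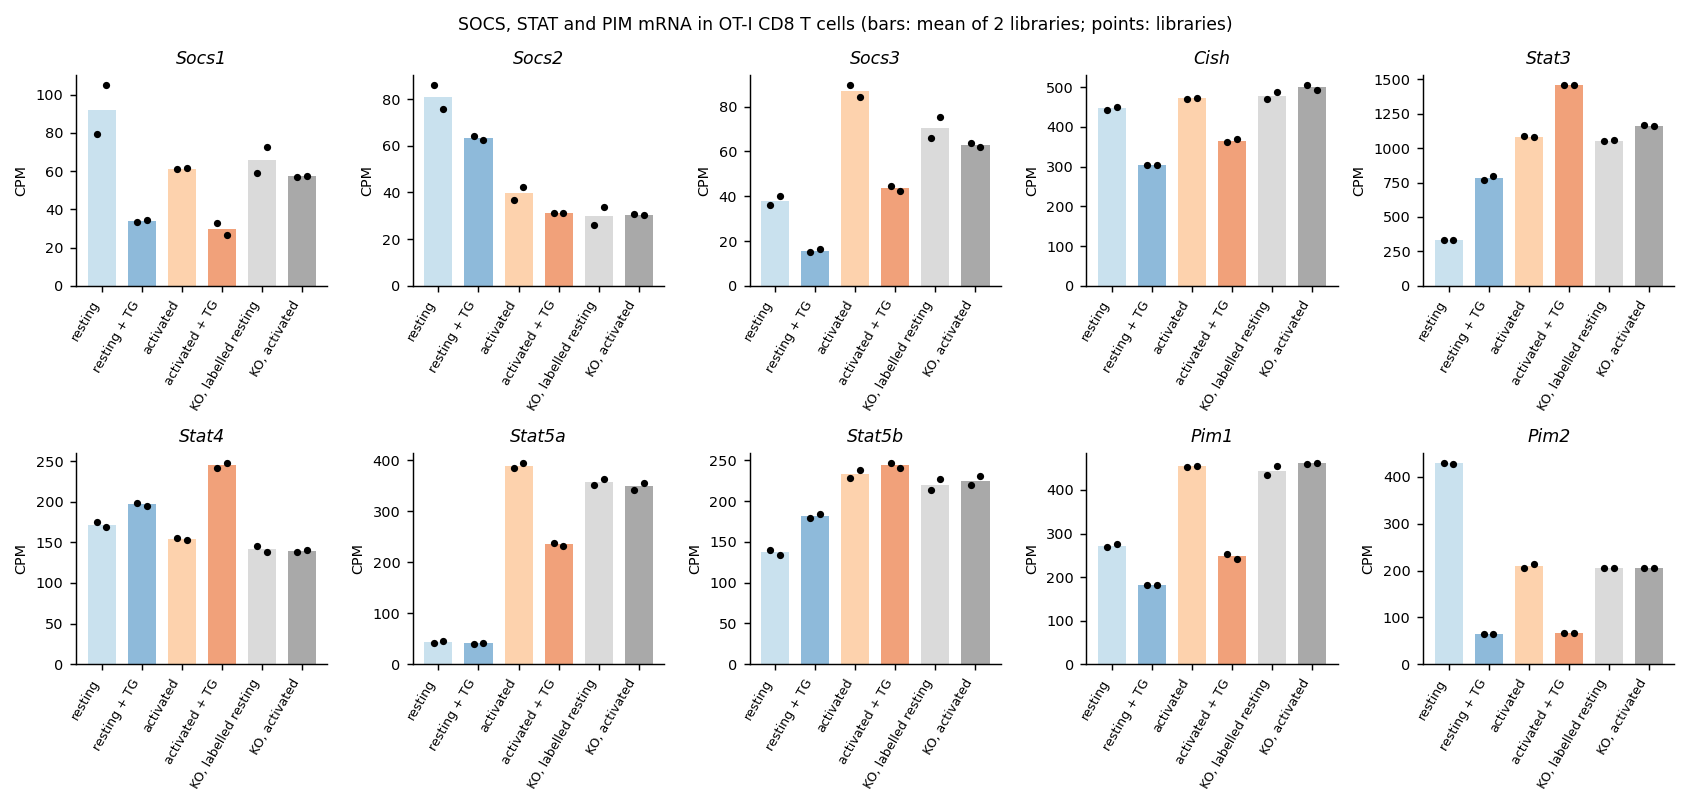
Level of each of the 10 genes (CPM, vertical axis from 0, with its own scale in each panel) in the 6 T cell groups; bars are means of 2 libraries and points the libraries. Pim2 is highest in resting vehicle cells, Stat5a is high in the groups with anti-CD3 and in the KO libraries labelled resting, and Stat3 is lowest in resting vehicle cells.

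The 4 feedback inhibitors all fell with TG, in resting and in activated cells. Cish encodes CIS, an inhibitor of STAT5 signalling at cytokine receptors and a brake on T cell receptor signalling. It made up 60.7 to 73.1% of the summed RPKM of the 4 genes in every control T cell library. Its mRNA was 444 and 450.5 CPM in resting cells and 305 and 305 CPM with TG, and 472 and 473 CPM in activated cells and 361 and 370.2 CPM with TG. Both TG groups lay below both vehicle groups without overlap. The log2 change with TG was -0.55 ± 0.036 (adjusted p = 2.3e-20) in resting and -0.37 ± 0.035 (adjusted p = 6.9e-14) in activated cells by edgeR's quasi-likelihood test, with Benjamini-Hochberg adjustment as for every adjusted p here. Activation in vehicle gave only 0.08 ± 0.035 (adjusted p = 0.036). That call was lost on leaving out any 1 of the 4 libraries compared (adjusted p between 0.051 and 0.12), while the value was 0.14 in a fit of only the compared groups and 0.18 with no filter. With TG present activation raised Cish by 0.26 ± 0.036. The gene models Gm17040 and Gm17041, which overlap Cish on the other strand, had 175 and 29 counts over all libraries.

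Socs1 encodes a direct inhibitor of JAK kinase activity that limits signalling by interferon-gamma and the IL-2 family. It was at 79.2 and 105 CPM in resting cells, where its 2 libraries stood furthest apart, and at 33.5 and 34.4 CPM with TG. In activated cells it was 61.1 and 61.6 CPM, and 32.7 and 26.9 CPM with TG. TG thus took it to a similar low range in both states: the change was -1.43 ± 0.17 (adjusted p = 2.5e-04) in resting and -1.05 ± 0.18 (adjusted p = 0.0020) in activated cells. Activation in vehicle lowered it (log2 change -0.58 ± 0.15, adjusted p = 0.011), a call lost without activated vehicle replicate 1 (adjusted p = 0.055) and in a fit of only the compared groups (0.12). Without resting vehicle replicate 2, the higher of the pair, the value was -0.37. In the presence of TG, activation gave -0.19 ± 0.21 (adjusted p = 0.46).

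Socs3 encodes the inhibitor that binds receptors of the gp130 family and is induced by STAT3. With activation it rose, from 35.9 and 40.1 CPM in resting to 89.8 and 84.4 CPM in activated vehicle cells (1.20 ± 0.064, adjusted p = 5.2e-24). With TG it was 14.9 and 16.6 CPM in resting and 44.7 and 42.3 CPM in activated cells. All 4 groups were separate, and activated cells with TG remained above resting cells with vehicle. The log2 change with TG was -1.27 ± 0.092 (adjusted p = 2.2e-18) in resting and -1.01 ± 0.062 (adjusted p = 3.3e-21) in activated cells.

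Socs2, which encodes an inhibitor best known for growth hormone signalling, changed most with activation rather than with TG. It was 86.2 and 75.9 CPM in resting and 37.0 and 42.5 CPM in activated vehicle cells (-1.04 ± 0.074, adjusted p = 6.5e-14). With TG it was 64.2 and 62.4 CPM in resting and 31.2 and 31.1 CPM in activated cells, and the TG changes were -0.36 ± 0.070 (adjusted p = 4.0e-05) and -0.34 ± 0.087 (adjusted p = 0.0010). Each pair of libraries was separate from the other 3 pairs. The direct test of the difference between the 2 TG effects on Socs2 gave 0.018 ± 0.11 (adjusted p = 0.91).

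Stat5a, which encodes one of the IL-2 responsive STATs, had the largest change with activation of the 10 genes. It was 42.2 and 46.0 CPM in resting cells, 40.4 and 41.9 CPM in resting cells with TG, 385 and 395 CPM in activated cells and 238 and 232 CPM in activated cells with TG. Activation raised it by 3.15 ± 0.047 (adjusted p = 3.2e-50) in vehicle and by 2.51 ± 0.049 (adjusted p = 2.7e-44) with TG. In activated cells TG lowered it, with a log2 change of -0.73 ± 0.038 (adjusted p = 1.5e-24). In resting cells, where the TG libraries lay just below the vehicle libraries, the change was -0.10 ± 0.062 (adjusted p = 0.16). The TG effect differed between the states (interaction -0.63 ± 0.072, adjusted p = 7.4e-11).

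Stat5b, which encodes the close paralogue, varied over a narrower range. Its levels were 139.5 and 134 CPM in resting, 179 and 184 CPM in resting with TG, 228 and 238 CPM in activated and 247 and 241 CPM in activated cells with TG. Activation raised it by 0.76 ± 0.042 (adjusted p = 1.6e-23) and TG raised it in resting cells by 0.40 ± 0.043 (adjusted p = 5.0e-12). In activated cells, where all 4 libraries lay close together, TG gave 0.067 ± 0.039 (adjusted p = 0.13); this value passed the test under a filter of 5 CPM in 2 libraries (0.088, adjusted p = 0.035) and turned to -0.013 with no filter. Because Stat5a and Stat5b share 608 stretches of 50 exonic bases (14.7% of those of Stat5a and 11.1% of those of Stat5b), and the treatment of reads that fit both is not stated, the split between them is uncertain to that extent.

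The balance between the 2 STAT5 genes was compared per length, as RPKM (CPM over all 20 libraries per kilobase of coding-transcript exons). Stat5a was 11.3 and 12.4 RPKM and Stat5b 26.8 and 25.9 RPKM in resting cells, so Stat5a made up 29.7 and 32.3% of the pair in the 2 libraries. In activated cells Stat5a was 99.7 and 102 RPKM, Stat5b 42.3 and 44.0 RPKM, and the Stat5a share 70.0 ± 0.24% (SD, n = 2). With TG the share was 24.1 ± 0.13% in resting and 57.4 ± 0.054% in activated cells. The order of the pair was thus opposite in resting and activated vehicle cells. With TG the order in activated cells depended on the length used. Over all exons of each gene, mean Stat5a was 34.3 and mean Stat5b 45.8 RPKM in activated cells with TG. In activated vehicle cells they were 56.1 and 43.1 RPKM on that length. In resting cells, with or without TG, Stat5b was the higher on both lengths. These shares are descriptions and carry no test.

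**Figure D2:**
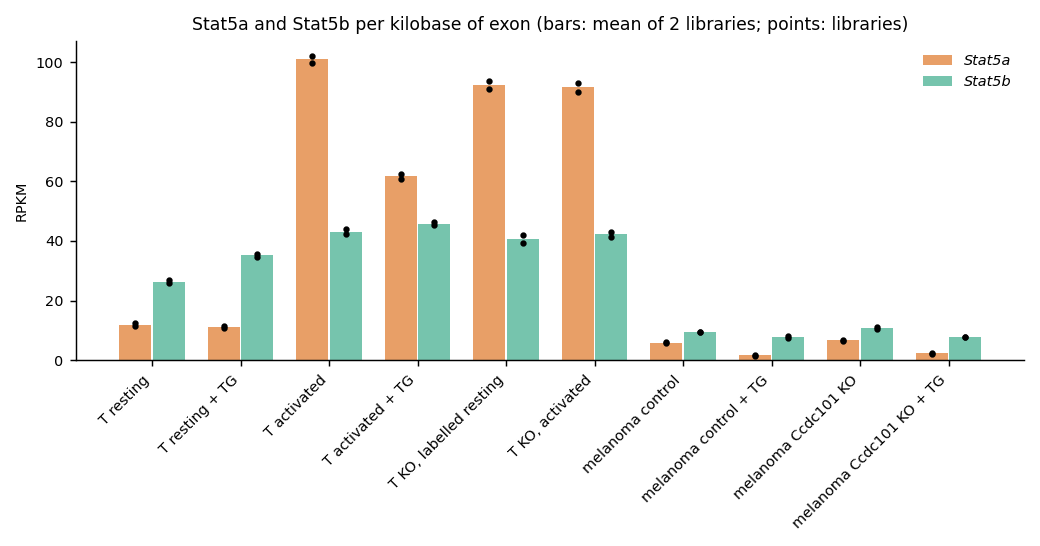
Stat5a and Stat5b (RPKM, vertical axis from 0) in all 10 groups; bars are means of 2 libraries and points the libraries. Stat5a lies above Stat5b in activated control and in all Atp2a2 KO T cells, and below it in resting control T cells and in every melanoma group. Lengths are those of coding-transcript exons. With the length of all exons, Stat5b is the higher in activated control T cells with TG.

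Stat3 rose with both stimuli. It was 335 and 333 CPM in resting cells, 765 and 796 CPM in resting cells with TG, 1086 and 1079 CPM in activated cells and 1461 and 1457 CPM in activated cells with TG. No 2 groups overlapped, and each further treatment gave a higher level. Activation raised Stat3 by 1.70 ± 0.034 (adjusted p = 4.5e-44), and TG raised it by 1.23 ± 0.034 (adjusted p = 2.9e-37) in resting and by 0.43 ± 0.032 (adjusted p = 9.6e-18) in activated cells. The 2 TG effects differed (interaction -0.79 ± 0.047, adjusted p = 2.0e-21). Stat3 and Stat5a lie tail to tail on opposite strands and share 72 exonic bases; since the strand setting of the counting is not stated, reads in those bases cannot be assigned, though they are a small part of either gene.

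Stat4 was the STAT gene that moved least with activation in vehicle, and it rose with TG. It was 175 and 168 CPM in resting, 198 and 195 CPM in resting with TG, 155 and 153 CPM in activated and 242 and 248 CPM in activated cells with TG. TG raised it by 0.20 ± 0.041 (adjusted p = 2.8e-05) in resting and by 0.67 ± 0.039 (adjusted p = 6.0e-22) in activated cells, and the difference between those effects was 0.47 ± 0.057 (adjusted p = 3.5e-10). Activation in vehicle gave a change of -0.15 ± 0.041 (adjusted p = 7.2e-04), a value that was -0.054 and not called with no filter on low counts and -0.10 in a fit of only the compared groups. With TG, activation raised it by 0.32 ± 0.039 (adjusted p = 4.0e-10). The gene model Gm28177 lies on the same strand and shares 1033 of the 3872 exonic bases of Stat4. It had 488 counts over all libraries, and the treatment of reads that fit both is not stated.

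The PIM kinase genes both fell with TG, Pim2 most of all 10 genes. Pim2 was 430.0 and 428 CPM in resting cells and 64.8 and 63.7 CPM with TG, a change of -2.74 ± 0.043 (adjusted p = 2.3e-49). In activated cells it was 206 and 215 CPM, and 67.4 and 67.1 CPM with TG, a change of -1.65 ± 0.044 (adjusted p = 7.4e-38). Activation lowered it in vehicle (-1.03 ± 0.037, adjusted p = 2.8e-32), and in the presence of TG activation gave 0.066 ± 0.051 (adjusted p = 0.26). The TG effects differed between resting and activated cells by 1.09 ± 0.063 (adjusted p = 8.4e-22). All 4 TG libraries lay between 63.7 and 67.4 CPM.

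Pim1 fell with TG and rose with activation. It was 269 and 275 CPM in resting, 181 and 181 CPM in resting with TG, 454 and 454 CPM in activated and 252 and 243 CPM in activated cells with TG. Activation raised it by 0.74 ± 0.036 (adjusted p = 9.4e-26) in vehicle and by 0.45 ± 0.039 (adjusted p = 3.6e-15) with TG. With TG the change was -0.59 ± 0.039 (adjusted p = 5.7e-20) in resting and -0.88 ± 0.036 (adjusted p = 8.9e-29) in activated cells, and the difference between these was -0.29 ± 0.053 (adjusted p = 5.6e-06). Activated cells with TG lay below resting cells with vehicle, the reverse of Socs3. Per length, Pim2 made up 81.5 ± 0.31% (SD, n = 2) of the summed RPKM of the 2 kinase genes in resting cells, 49.8 ± 0.33% in resting cells with TG, 56.4 ± 0.67% in activated cells and 43.2 ± 0.57% in activated cells with TG. These shares depend on the length used. Over all exons of each gene, mean Pim2 and Pim1 were 164 and 86.2 RPKM in resting and 77.3 and 139 RPKM in activated cells. With TG they were 24.7 and 58.0 RPKM in resting and 25.1 and 76.6 RPKM in activated cells. The gene model Gm26885 shares 488 exonic bases with Pim1 on the other strand and had 74 counts over all libraries.

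**Figure D3:**
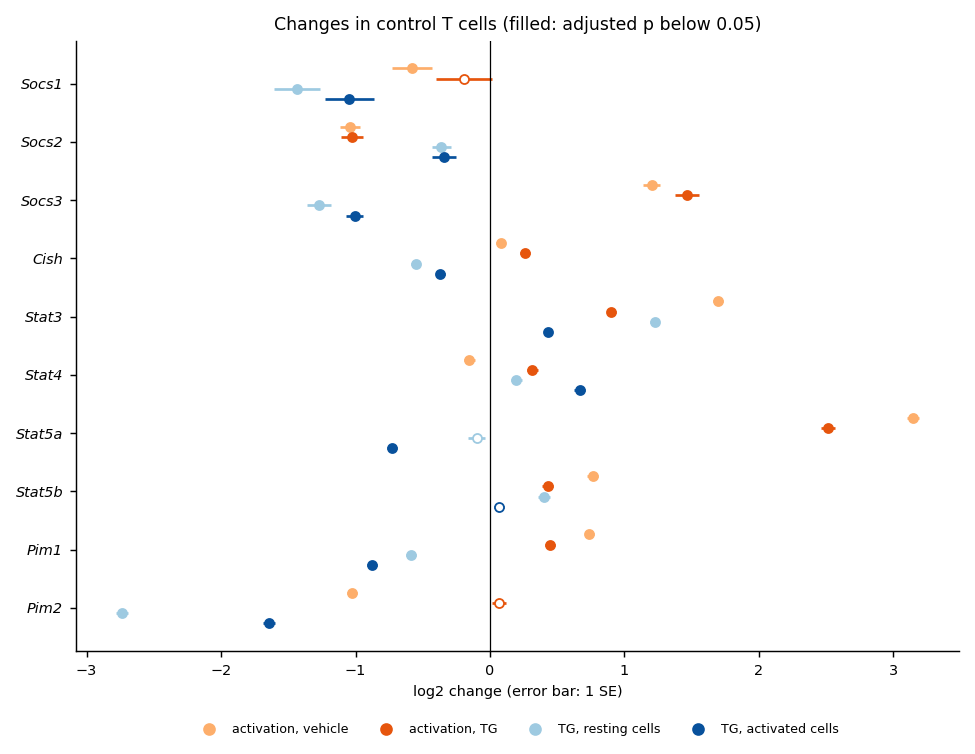
Log2 change (horizontal axis, error bars 1 SE) of each gene with activation in vehicle or TG, and with TG in resting or activated control T cells; filled points passed an adjusted p of 0.05. The TG points lie below 0 for the 4 feedback inhibitors and both PIM genes, and above 0 for Stat3 and Stat4.

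Tested directly, the TG effect differed between resting and activated T cells for 8 of the 10 genes (4 positive, 4 negative differences), where 51.9% of all genes differed. Beside those given above, Socs3 had a difference of 0.26 ± 0.11 (adjusted p = 0.046) and Cish of 0.18 ± 0.050 (adjusted p = 0.0017), and Socs1 and Socs2 were not called. The Socs3 difference is not firm: it was lost by DESeq2 (adjusted p = 0.19), under relative log expression scaling (0.069), with no filter (0.23) and without any 1 of 5 libraries. These were activated TG replicate 1, either resting TG library, activated vehicle replicate 2 and resting vehicle replicate 2, and the lowest log2 value among them was 0.12 without resting TG replicate 1. The Cish difference was lost without either resting TG library (adjusted p = 0.065 and 0.072) and with no filter (log2 0.11, adjusted p = 0.13). For Socs1 the difference was 0.39 ± 0.26 (adjusted p = 0.27), and 0.58 (adjusted p = 2.9e-04) without resting vehicle replicate 1. With TG present, activation raised 7 of the 10 and lowered 1 (Socs2, -1.02 ± 0.083), where 32% of genes rose and 31.9% fell.

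The rest of the pathway was read from lists of ligands, receptors, kinases and targets, and each log2 change given for a gene of these lists passed the test. Of 18 tested receptor chains, 13 fell and 4 rose with TG in resting cells, and 9 fell and 6 rose in activated cells, with list medians of -0.69 and -0.21, against 0.0064 and 0.0080 over all genes. Il2rb, the signalling chain shared by the IL-2 and IL-15 receptors, was 1791 and 1756 CPM in resting cells and 478 and 491 CPM with TG, and 1736 and 1759 CPM in activated cells and 479.9 and 489 CPM with TG (-1.87 ± 0.033 and -1.85 ± 0.033). Il2ra, the high-affinity chain, was 1343 and 1295 CPM in resting cells and 1313 and 1323 CPM with TG, while in activated cells TG took it from 5604 and 5745 to 2836 and 2873 CPM (-0.99 ± 0.030). Il7r rose with TG by 1.13 ± 0.038 in resting and 0.95 ± 0.038 in activated cells. Il12rb1, which encodes a chain of the IL-12 receptor, fell in both states (-2.37 ± 0.051 and -1.22 ± 0.050). Il6st, which encodes gp130, rose by 1.21 ± 0.078 in activated cells. Of 15 tested cytokine genes, 8 rose and 3 fell with TG in resting cells, and 6 rose and 8 fell in activated cells.

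Among 7 JAK and other STAT genes, TG raised 2 and lowered 4 in each state. Jak1 was 902 and 885 CPM in resting cells and 406 and 408 CPM with TG (-1.13 ± 0.034), and changed by -0.17 ± 0.035 in activated cells, where activation alone had lowered it (-1.23 ± 0.034). Of 15 other negative regulators, 9 rose and 3 fell with TG in resting cells, and 8 rose and 2 fell in activated cells. Cblb, a ubiquitin ligase that restrains T cell activation, rose by 1.48 ± 0.036 and 1.21 ± 0.035. The SOCS genes of that list did not all go with the 4 members: Socs7 (0.68 ± 0.062) and Socs5 (0.46 ± 0.086) rose with TG in resting cells.

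Genes linked to STAT5 fell with TG in 10 of 15 cases in resting cells (4 rose) and in 11 of 15 in activated cells (3 rose), with list medians of -0.58 and -0.91 against 0.0064 and 0.0080 over all genes. Over all tested genes 35.2% fell and 34.1% rose in resting cells, and 32.4% and 32.6% in activated cells, and these shares hold beside the other list counts with TG. Gzmb, the granzyme of cytotoxic cells, was 10692 and 10247 CPM in resting cells and 1509 and 1490.0 CPM with TG (-2.80 ± 0.031), and Ccnd3, a G1 cyclin, was 537 and 540.2 CPM and 95.7 and 92.0 CPM (-2.52 ± 0.041). Both also fell in activated cells (-1.74 ± 0.030 and -1.93 ± 0.043). Tnfrsf4, which encodes OX40, went the other way in resting cells (2.91 ± 0.067). STAT3-linked genes were 5 up and 6 down of 11 in resting cells, and 3 up and 7 down in activated cells with TG, although Stat3 mRNA rose in both. Bcl3 fell in both (-1.27 ± 0.088 and -1.69 ± 0.071), while Fos rose in resting cells (1.75 ± 0.12) and Il21 in activated cells (2.63 ± 0.084). Of 8 STAT4-linked genes, 5 rose and 2 fell with TG in each state. Ifng rose from 9.01 and 9.79 to 1481 and 1502 CPM with TG in resting cells and from 4712 and 4874 to 10396 and 10209 CPM in activated cells, while Gadd45g fell (-2.19 ± 0.084 and -3.48 ± 0.098).

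With activation in vehicle, 13 of 15 tested cytokine genes rose and 1 fell, where 35.3% of all genes rose and 39.1% fell. Of 15 STAT5-linked genes 9 rose and 6 fell, of 11 STAT3-linked genes 9 rose and 2 fell, and of 9 genes of the PIM list 6 rose and 3 fell. Il2ra rose from 1319 to 5675 CPM (means of 2 libraries), while of 18 receptor chains 12 fell and 3 rose. The third PIM gene, Pim3, rose by 1.59 ± 0.059 with activation. With TG it rose by 0.55 ± 0.067 in resting cells and fell in activated cells (-0.88 ± 0.053, a value added after it was seen), and the difference between these was -1.43 ± 0.086. Eif4ebp1, whose protein holds back cap-dependent translation and is a PIM substrate, rose with TG by 1.39 ± 0.049 in resting and 1.51 ± 0.044 in activated cells, and Cxcr4 fell in both (-2.03 ± 0.086 and -0.96 ± 0.11). These lists overlap in part, for example in Myc, and their shared genes are counted in each.

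Between activated Atp2a2 KO and activated control T cells the log2 differences of the 10 genes ran from -0.47 to 0.10, while TG in the same state changed 6 of them by more than 0.47 in size; the effects of KO and TG were not tested against each other. Of the 10, 1 rose and 4 fell, where 17.5% of tested genes rose and 19.6% fell. Socs3 was 89.8 and 84.4 CPM in the control and 63.7 and 62.1 CPM in the KO (-0.47 ± 0.056, adjusted p = 5.7e-10), and Socs2 was 37.0 and 42.5 and 30.7 and 30.4 CPM (-0.37 ± 0.085, adjusted p = 8.1e-04). In both genes the libraries of the 2 groups did not overlap. Stat5a (-0.16 ± 0.036, adjusted p = 2.7e-04) and Stat4 (-0.15 ± 0.041, adjusted p = 0.0024) were slightly lower. Stat3 was slightly higher, 1086 and 1079 CPM in the control and 1165 and 1159.5 CPM in the KO (0.10 ± 0.032, adjusted p = 0.0087), a call lost without activated vehicle replicate 1 (adjusted p = 0.053), without activated vehicle replicate 2 (0.082) and with no filter (0.22).

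Some genes that TG lowered in activated cells were not called in the KO, unlike Socs3, Socs2 and Stat5a. Pim2 was 205 and 206 CPM in the KO, against 206 and 215 CPM in the control (-0.034 ± 0.038, adjusted p = 0.52). Pim1 gave 0.022 ± 0.035 (adjusted p = 0.67) and Socs1 -0.10 ± 0.16 (adjusted p = 0.68). Cish was 507 and 494 CPM, with a change of 0.083 ± 0.034 (adjusted p = 0.051) that passed the test in a fit of only the compared groups (adjusted p = 0.040) and under a filter of 5 CPM in 2 libraries (0.0069), opposite in sign to that of TG. The KO and TG comparisons share the activated vehicle libraries, and the time between targeting of Atp2a2 and harvest is not stated. Of 15 other negative regulators, 3 rose, 3 fell and 9 were not called in the KO. Of 18 tested receptor chains, 3 rose, 4 fell and 11 were not called, where 17.5% of all tested genes rose and 19.6% fell. Among the regulators, Ptpn6, the phosphatase SHP-1, rose by 0.87 ± 0.038 and Cblb by 0.70 ± 0.035, and of the receptor chains Il2ra fell (-0.25 ± 0.030).

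Between the libraries labelled resting and the activated Atp2a2 KO libraries, 1 of the 10 genes was called, Stat3, with 1049 and 1058 CPM against 1165 and 1159.5 CPM (-0.14 ± 0.032, adjusted p = 0.018), where 0.588% of genes differed. That call was lost without activated KO replicate 1 (adjusted p = 0.18), without either labelled resting library (0.27 and 0.21) and in a fit of only the compared groups (0.061). Against resting control all 10 were called, 6 higher and 4 lower (33.7% and 35.9% of all genes), with Stat5a at 353 and 363 CPM (3.02 ± 0.048). For Socs1 (-0.48 ± 0.16) the call was lost without labelled resting replicate 1 (adjusted p = 0.16) and in a fit of only the compared groups (0.24), and without resting vehicle replicate 2 its value was -0.27. For Cish (0.10 ± 0.035) it was lost without resting vehicle replicate 1 (adjusted p = 0.056) and without labelled resting replicate 2 (0.14). Since these libraries go against their label, no effect of the KO in resting cells is drawn from them.

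In melanoma the same genes were far less abundant, and 8 of the 10 passed the filter. Socs1 had 7 and 5 counts in the 2 control libraries with vehicle and Stat4 had 2 and 0 counts, so neither was tested. The summed melanocyte markers differed between the groups, 16882 to 17222 CPM in control cells, 14419 to 14485 CPM with TG, 13954 to 14286 CPM in KO cells and 11066 to 11104 CPM in KO cells with TG, and their part in these results was not tested. Cish, Socs2, Socs3 and Pim1 lay between 0.874 and 7.18 CPM in every library, at which level counting error is large. The T cell markers summed to between 3.12 and 8.49 CPM in the same libraries, and their part in these values was not tested. Stat3, Stat5b, Stat5a and Pim2 were the members with more counts. With TG in control melanoma 1 of the 8 rose and 5 fell (35.7% and 36.1% of 12540 genes), and in Ccdc101 KO melanoma 2 rose and 4 fell (34.1% and 36.3%).

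**Figure D4:**
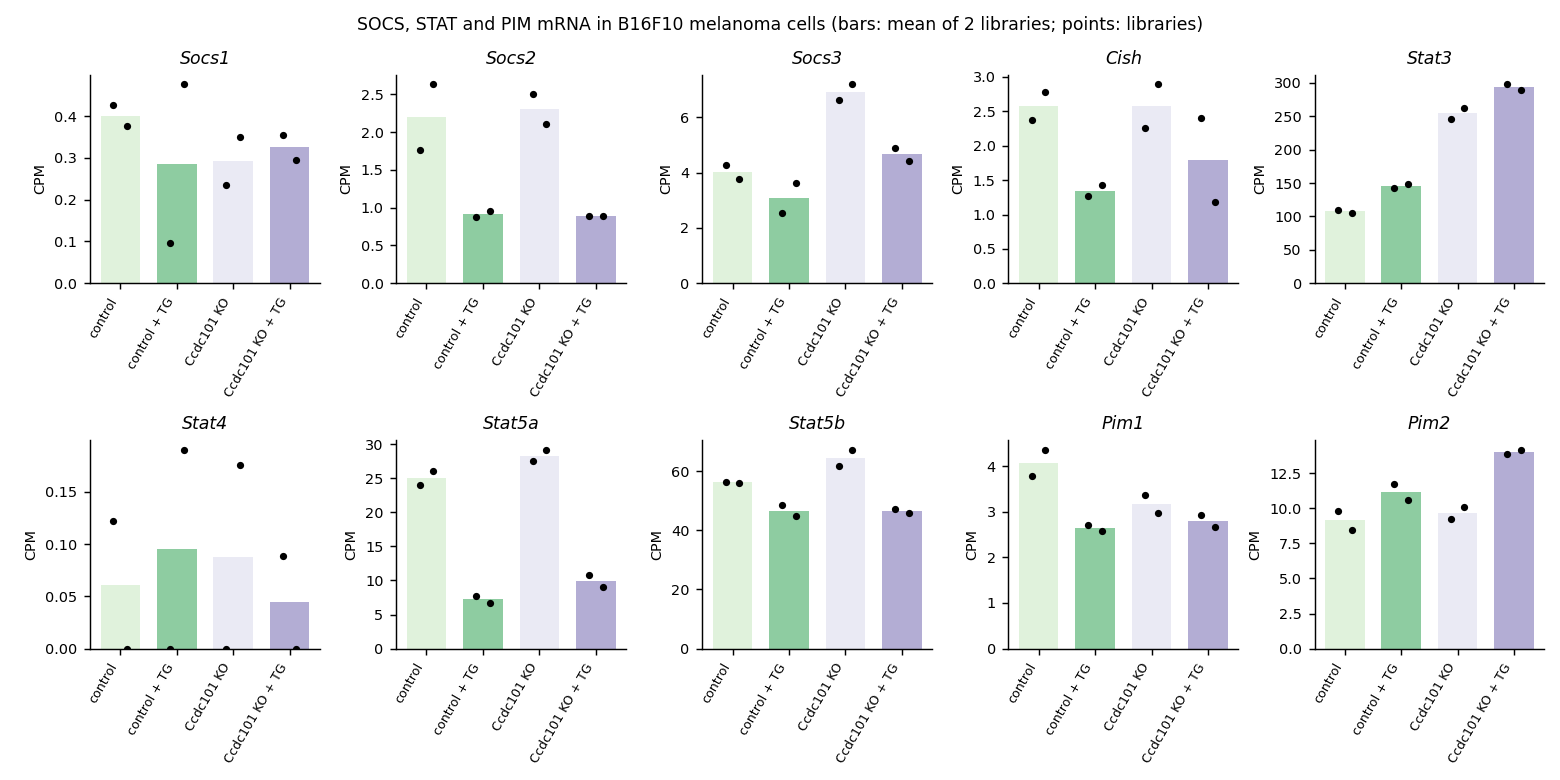
Level of each of the 10 genes (CPM, vertical axis from 0, with its own scale in each panel) in the 4 melanoma groups; bars are means of 2 libraries and points the libraries. Stat3 is higher in both Ccdc101 KO groups than in either control group, and Stat5a is lower in both TG groups than in either vehicle group.

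Stat5a had the largest TG effect of the 8 in melanoma. It was 24.0 and 26.1 CPM in control cells and 7.77 and 6.66 CPM with TG (-1.79 ± 0.12, adjusted p = 4.5e-17), and 27.5 and 29.2 CPM in KO cells and 10.7 and 9.08 CPM with TG (-1.52 ± 0.11, adjusted p = 2.6e-16). Stat5b fell less, from 56.5 and 55.9 to 48.5 and 44.7 CPM in control (-0.27 ± 0.064, adjusted p = 2.7e-04) and from 61.8 and 67.2 to 47.1 and 45.9 CPM in KO cells (-0.47 ± 0.063, adjusted p = 1.1e-08). Per length, the Stat5a share of the pair was 38.3 ± 1.6% with vehicle and 17.7 ± 0.74% with TG in control melanoma, and 37.7 to 38.3% and 22.9 ± 1.8% in KO melanoma. Stat3 rose from 109 and 106 to 143 and 148 CPM in control (0.44 ± 0.045, adjusted p = 1.3e-11) and from 246 and 262 to 297 and 289 CPM in KO cells (0.21 ± 0.039, adjusted p = 9.8e-06).

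The scarcer members gave wider errors. Socs2 fell in both lines (-1.23 ± 0.36, adjusted p = 0.0025 in control, -1.37 ± 0.35, adjusted p = 7.0e-04 in KO), though in the control the call was lost without vehicle replicate 2 (-0.93, adjusted p = 0.056). Cish (-0.92 ± 0.33, adjusted p = 0.011) and Pim1 (-0.61 ± 0.23, adjusted p = 0.017) were called lower in control cells, but DESeq2 did not call them (adjusted p = 0.090 and 0.14). Cish was also lost without control TG replicate 1 (0.070) or control vehicle replicate 2 (0.064), and Pim1 without replicate 2 of control TG (0.084) or of control vehicle (0.10). Socs3 was 4.26 and 3.76 CPM and 2.52 and 3.61 CPM with TG in control cells (-0.39 ± 0.22, adjusted p = 0.12), a value that was called without TG replicate 2 (-0.67, adjusted p = 0.042). In KO cells Socs3 fell (-0.57 ± 0.18, adjusted p = 0.0050), a call lost by DESeq2 (0.098) and without KO TG replicate 2 (0.061). In KO cells Cish gave -0.56 ± 0.30 (adjusted p = 0.099), and -1.11 (adjusted p = 0.014) without KO TG replicate 1.

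Pim2, the gene that fell most with TG in T cells, was higher in the TG than in the vehicle libraries of melanoma. It was 9.80 and 8.49 CPM in control cells and 11.7 and 10.6 CPM with TG (0.28 ± 0.13, adjusted p = 0.062), and this value was called without vehicle replicate 1 (0.40, adjusted p = 0.033) and under the filter of 5 CPM in 2 libraries (0.043). In Ccdc101 KO cells it rose from 9.22 and 10.1 to 13.9 and 14.2 CPM (0.54 ± 0.13, adjusted p = 2.3e-04).

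Ccdc101 encodes the histone-reading SGF29 protein of the acetyltransferase complex SAGA. Its loss raised 3 of the 8 genes with vehicle and 4 with TG and lowered 0, where 12.4% and 16.6% of all genes rose and 13.3% and 15% fell. Stat3 stood out in size: 109 and 106 CPM in control and 246 and 262 CPM in KO cells with vehicle (1.24 ± 0.042, adjusted p = 6.0e-25), and 143 and 148 CPM and 297 and 289 CPM with TG (1.01 ± 0.042, adjusted p = 1.7e-22). The 2 KO groups were above both control groups in every library. Socs3 rose by 0.77 ± 0.18 (adjusted p = 9.2e-04) with vehicle, but not by DESeq2 (adjusted p = 0.068), and by 0.59 ± 0.22 (adjusted p = 0.040) with TG. Stat5b rose with vehicle (0.20 ± 0.059, adjusted p = 0.010), and Stat5a (0.45 ± 0.15, adjusted p = 0.019) and Pim2 (0.33 ± 0.13, adjusted p = 0.043) with TG. How the KO and control lines were derived is not stated, so the lines may differ in more than the guide.

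Of these KO calls, Stat3 in both comparisons and Socs3 with vehicle were kept when any single library was left out, and the others were not. Stat5b with vehicle was lost without any of control replicate 1 (adjusted p = 0.076), control replicate 2 (0.083) and KO replicate 2 (log2 0.12, adjusted p = 0.27). With TG, Socs3 was lost without control replicate 1 (log2 0.37, adjusted p = 0.33) and without either KO replicate (adjusted p = 0.15 and 0.080). Stat5a was lost without control replicate 2 (adjusted p = 0.19) or KO replicate 1 (0.16). Pim2 was lost without control replicate 2 (adjusted p = 0.26) or either KO replicate (0.085 and 0.17). DESeq2 called only Stat3 in each of the 2 comparisons, with adjusted p for Socs3 of 0.21 with TG. When the change with TG was tested between the 2 melanoma genotypes, 1 of the 8 differed, as did 13.1% of all genes. This was Stat3 (-0.23 ± 0.059, adjusted p = 0.0057), lost by DESeq2 (adjusted p = 0.069) and without replicate 2 of KO TG (0.051) or of KO vehicle (0.063).

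Among the other pathway genes in melanoma, of 7 JAK and other STAT genes 3 rose and 0 fell in the KO with vehicle, and 4 rose and 0 fell with TG, where 12.4% and 16.6% of all genes rose and 13.3% and 15% fell. With TG in control melanoma, where 35.7% of all genes rose and 36.1% fell, of 9 tested STAT3-linked genes 3 rose and 4 fell, among them Vegfa (2.61 ± 0.057) up and Fos (-1.66 ± 0.21) down. Of 10 STAT5-linked genes 3 rose and 5 fell, with Ccnd3 at 267 and 253 CPM in vehicle and 44.8 and 47.3 CPM with TG (-2.50 ± 0.054), a fall similar in size to that in resting T cells.

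**Figure D5:**
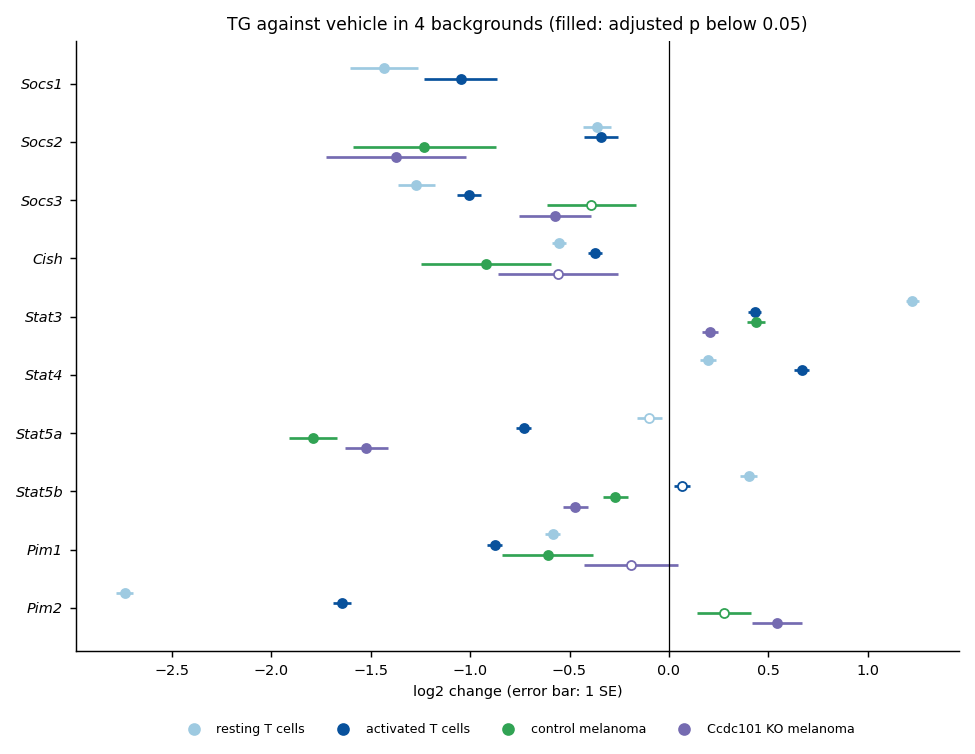
Log2 change with TG (horizontal axis, error bars 1 SE) in resting T cells, activated T cells, control melanoma and Ccdc101 KO melanoma; filled points passed an adjusted p of 0.05, and Socs1 and Stat4 were not tested in melanoma. Pim2 lies far below 0 in T cells and above 0 in melanoma, Stat5a is lowest in melanoma, and Stat3 lies above 0 in all 4.

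The TG effect in control melanoma was tested against that in T cells in 1 fit of all 20 libraries, over the 8 genes tested in both. Against resting T cells it differed for 5 (2 positive, 3 negative), where 47.4% of 14824 genes differed, and against activated T cells for 4 (2 and 2), where 43.4% did. Pim2 had the largest difference, 2.99 ± 0.13 (adjusted p = 8.8e-33) against resting and 1.89 ± 0.13 (adjusted p = 4.1e-22) against activated T cells. For Stat5a the TG effect in melanoma was the lower (-1.71 ± 0.13, adjusted p = 3.8e-20 and -1.09 ± 0.12, adjusted p = 6.9e-13). It was also lower for Stat5b (-0.69 ± 0.075, adjusted p = 8.3e-13 and -0.36 ± 0.073, adjusted p = 1.7e-05). Stat3 rose less in melanoma than in resting T cells (-0.81 ± 0.053, adjusted p = 1.3e-22), and against activated T cells the difference was -0.019 ± 0.052 (adjusted p = 0.86). For Socs3, which was not called in control melanoma, the effect lay above that in resting (0.86 ± 0.25, adjusted p = 0.0030) and activated T cells (0.59 ± 0.24, adjusted p = 0.040).

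The Socs3 values rest on few counts in melanoma. The difference from resting T cells was lost without control melanoma TG replicate 2 (0.53, adjusted p = 0.22). The difference from activated T cells was lost by DESeq2 (adjusted p = 0.060), with no filter (0.067) and without any 1 of 4 libraries. These were control melanoma TG replicate 2 (log2 0.27, adjusted p = 0.60), control melanoma vehicle replicate 2 (adjusted p = 0.13), activated T cell TG replicate 2 (0.071) and activated T cell vehicle replicate 1 (0.077). Socs2 was not called (-0.89 ± 0.39, adjusted p = 0.053 and -0.91 ± 0.39, adjusted p = 0.052). It was called with no filter (0.042 and 0.039), in fits of only the compared groups (0.020 and 0.041) and without melanoma vehicle replicate 1 (0.019 and 0.019). Against resting T cells it was also called without resting vehicle replicate 1 (0.026) and, against activated T cells, without activated vehicle replicate 2 (0.028).

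Per length, the order of the 10 groups differed from gene to gene. In RPKM, every member was lower in all 4 melanoma groups than in all 6 T cell groups, and the gap was least for Stat3 (57.2 RPKM in the lowest T cell group and 43.9 in the highest melanoma group) and Stat5a (11.2 and 6.63). Pim2 ran from 62.1 RPKM in resting cells with TG to 411 RPKM in resting cells, the highest level of any member in any group, and Stat3 from 57.2 in resting cells to 244 RPKM in activated cells with TG. Stat5a had the widest range over T cell groups, 9.48-fold in mean CPM scaled within the T cell libraries, followed by Pim2 with 6.68-fold, Socs3 with 5.53-fold and Stat3 with 4.37-fold. Socs1 covered 3.10-fold, Socs2 2.70-fold and Pim1 2.54-fold, while Stat5b (1.78-fold), Stat4 (1.76-fold) and Cish (1.64-fold) varied least. For Socs3 and Stat3 no 2 neighbouring groups in the order of all 10 overlapped. Among T cell groups, the neighbours that overlapped were the labelled resting KO and activated control for Socs1, Cish and Pim1, and the 2 KO groups for Socs2, Stat4, Stat5a and Stat5b. Activated control and activated KO overlapped for Stat5b and Pim2, and resting cells with and without TG overlapped for Stat5a on this scale.

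Genes with the most similar profile over the 12 T cell libraries were named by Pearson correlation of log2 CPM, as a description: the 12 points are 6 groups of 2 libraries and share the scaling. For Pim1 the nearest of 9290 genes was Dusp5 (r = 0.997), for Stat3 Tnfaip3 (0.997), for Stat5a Elmo1 (0.997) and for Socs3 Pmpca (0.996). Pim2 was nearest to Agfg2 (0.995), Stat5b to Nop14 (0.994), Cish to Tubb6 (0.991), Socs2 to Aff3 (0.990) and Socs1 to Ddit4 (0.984). Among the members themselves, Stat3 and Stat5b were the closest pair (0.979), followed by Socs1 and Pim2 (0.966), Socs3 and Pim1 (0.935) and Cish and Pim1 (0.929). Socs2 and Stat5a were the most opposed pair (-0.908).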

How the data were processed

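Total RNA was sequenced from 20 libraries. The submitters' processing notes name STAR 2.6.0c, HTSeq and the build GRCm38 (mm10). The HTSeq version, strand setting, annotation and filters are not given in the sources used here. The authors deposited whole-number counts per gene identifier, and total counts per library ran from 9985311 to 17462770. Identifiers were named from GENCODE M21 (46091 of 46603); the 512 without a name held 0.0759% of counts.

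T cells (12 libraries, 13432 genes passing the default filter of filterByExpr), melanoma (8 libraries, 12540 genes) and, for contrasts between them, all 20 (14824 genes) were fitted separately with edgeR 4.0.16 (limma 3.58.1, R 4.3.3): TMM scaling, 1 mean per group, robust quasi-likelihood test, Benjamini-Hochberg adjustment over all genes of the fit. Calls were made at adjusted p under 0.05. Residual degrees of freedom were 6, 4 and 10. The standard error of a log2 change is its size over the root of the F statistic. CPM was scaled within the T cell or the melanoma libraries, and RPKM over all 20. The fits were also run on simulated data with known changes in a small part of the genes. In most comparisons here far more genes were called, so that run cannot show the error rate in these data.

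The 10 members and the pathway lists were chosen with earlier results of these data known. Other genes named are the targeted genes, a panel of cytokine pathway genes and, per comparison and list, up to 4 called genes of largest change with at least 10 CPM; some of these are not reported here. The alternatives were a replicate block, leaving out each library, DESeq2 1.42.0, fits of only the groups compared, no filter or one of 5 CPM in 2 libraries, scaling by relative log expression, and fits without the libraries labelled resting Atp2a2 KO. Replicates of each group differed by more than sampling noise, and none was merged. Figures were drawn with matplotlib 3.10.9 in Python 3.11.15.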

Additional observations from a re-analysis of the deposited data

Results flagged for a closer look

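The results in this part are differences between effects of TG that passed the test of the difference itself. There were 18, with log2 values as in the report: 8 between activated and resting T cells, 1 between Ccdc101 KO and control melanoma, 5 between control melanoma and resting T cells and 4 between control melanoma and activated T cells.

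In T cells, as the effect in activated minus that in resting cells, the 4 positive differences were Pim2 (1.09 ± 0.063), Stat4 (0.47 ± 0.057), Socs3 (0.26 ± 0.11) and Cish (0.18 ± 0.050). Pim2 and the 2 feedback inhibitors fell less in activated cells, and Stat4 rose more. The Socs3 and Cish differences were lost in some refits, as given in the report. The 4 negative differences were Stat3 (-0.79 ± 0.047), Stat5b (-0.33 ± 0.059), Stat5a (-0.63 ± 0.072) and Pim1 (-0.29 ± 0.053). Of these, Stat3 rose in both states and Pim1 fell in both, while Stat5b was called with TG only in resting and Stat5a only in activated cells. In melanoma the effect on Stat3 differed by -0.23 ± 0.059 between KO and control cells, a call that was also lost in some refits.

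As the effect in control melanoma minus that in resting T cells, the differences were 2.99 ± 0.13 for Pim2, 0.86 ± 0.25 for Socs3, -0.69 ± 0.075 for Stat5b, -0.81 ± 0.053 for Stat3 and -1.71 ± 0.13 for Stat5a. Against activated T cells they were 1.89 ± 0.13 for Pim2, 0.59 ± 0.24 for Socs3, -0.36 ± 0.073 for Stat5b and -1.09 ± 0.12 for Stat5a. Each of the Socs3 differences was lost in at least 1 refit, as given in the report. Cell type and culture conditions differ together here and cannot be told apart.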

How the results depend on the processing

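For the 10 genes, 1532 single-gene values were refitted under the alternatives, and 1415 kept their direction and their side of the threshold. The counts of members called per comparison moved by over 1.5 times, or to 0, in 13 refits and not in 159. Of 89 called values, 68 kept their call under every alternative run and 0 changed sign. Of the other named values, 38 were followed through 419 refits and kept direction and call in all of them. Counts of calls in the pathway lists moved by over 1.5 times in 87 refits and not in 1289. Apart from the list counts of the Atp2a2 KO in activated cells, which may be among them, none of the moved counts is given in the report. Low counts limit Socs1, Socs2, Socs3, Cish, Stat4 and Pim1 in melanoma. In the counts of members called, DESeq2 gave 1 in place of 3 for the Ccdc101 KO with vehicle, 1 in place of 4 with TG, and 0 in place of 1 for the interaction in melanoma, where it gave an adjusted p for 2 members only. The fit of only the groups compared gave 0 in place of 1 for labelled resting against activated Atp2a2 KO. Leaving out 1 library gave 3 to 7 members called for TG in control melanoma, 1 to 3 for the Ccdc101 KO with TG, 0 to 1 for the interaction in melanoma and 0 to 1 for labelled resting against activated KO.

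Values near 0 changed sign. With no filter these were Pim2 between the 2 Atp2a2 KO groups (-0.0157), Pim1 in the activated KO (-0.0192), Stat5b with TG in activated T cells (-0.0133), Socs2 in the T cell interaction (-0.0600), and in melanoma Cish in the Ccdc101 KO with vehicle (-0.0062) and Socs2 (0.0016) and Stat5b (0.0381) in the KO with TG. Cish in the KO with vehicle was -0.0144 by DESeq2 and -0.0132 under relative log expression scaling, and Socs2 in the T cell interaction -0.0132 and -0.0050. On leaving out 1 library, values that crossed 0 ran from -0.0908 to 0.110 for Socs2 in the T cell interaction. Between the Atp2a2 KO groups they ran from -0.217 to 0.152 for Socs2, -0.0013 to 0.0644 for Stat4 and -0.0745 to 0.0210 for Stat5b. In the Ccdc101 KO with vehicle they ran from -0.205 to 0.371 for Socs2, -0.192 to 0.160 for Cish and -0.0419 to 0.161 for Pim2, and with TG from -0.0595 to 0.0642 for Stat5b, -0.0910 to 0.0252 for Socs2 and -0.178 to 0.833 for Cish. In the melanoma interaction they ran from -0.421 to 0.155 for Socs2, -0.405 to 0.107 for Socs3 and -0.179 to 0.832 for Cish, and between cell types from -0.151 to 0.0487 for Pim1 (resting) and -0.0816 to 0.0066 for Stat3 (activated). The cause was not tested, and none of these was called.

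Whether replicate numbers pair the samples cannot be settled with 2 libraries per group. The deviations of same-numbered libraries correlated by -0.244 to 0.291 over 15 pairs of T cell groups and by -0.195 to 0.068 over 6 pairs of melanoma groups. Of the T cell pairs 3 were over 0.1, and the highest was that of activated control and activated Atp2a2 KO. With the replicate number as a block, 0 member calls were lost and 2 gained, Socs2 in control melanoma against resting (-0.89, adjusted p = 0.047) and activated T cells (-0.91, adjusted p = 0.047).

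Over all genes, DESeq2 called 3156 in place of 4986 for the Atp2a2 KO, 35 in place of 79 between the 2 KO groups (184 with no filter, 15 to 191 on leaving out 1 library), 1508 in place of 3218 for the Ccdc101 KO with vehicle and 2126 in place of 3956 with TG (as few as 2615 on leaving out 1 library). For the interaction in melanoma it called 671 in place of 1644 (as few as 1090 on leaving out 1 library). Higher calls made up 37.2% by DESeq2 for the KO with vehicle (48.2% in edgeR), 64.4% with no filter for the KO with TG, and 70.5% with no filter and 66.6% by DESeq2 for the interaction.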
